A study of Drosophila melanogaster with 2 samples.

Results

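The regions described here are stretches of accessible chromatin that lay inside protein-coding genes of the Drosophila melanogaster mushroom body (MB), away from the ends of any gene. They were the 3574 regions, of 14656 called in both replicates, that overlapped the span of a protein-coding gene and lay more than 1000 and less than 10000 bp from the nearest start or end of any annotated gene (24.4% of the regions called in both replicates). A region was made by merging the peaks of the replicates that overlapped by at least 1 bp, and was kept where both replicates contributed a peak. The choice used positions and set no limit on fold enrichment or width. It did use the host, since only a protein-coding gene with bases that far from every gene end can hold such a region. Short genes therefore could not be hosts. Distance was measured from the edges of a region, so that wide regions more easily came within 1000 bp of a gene end. Calling in both replicates left out weak regions, as given below.

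Accessible chromatin was measured by ATAC-seq, in which a transposase cuts and tags open DNA, in 2 biological replicates of 1 condition. Both replicates were naive control flies of one genotype, with UAS-unc84::2xGFP over tubGal80(ts) and P{VALIUM20-mCherry.RNAi}attP2 over R14H06-Gal4 in a w* background. The driver R14H06-Gal4 is active in postmitotic MB neurons and carries a copy of an enhancer of the adenylyl cyclase gene rutabaga (rut), mCherry RNAi has no fly target, and Gal80(ts) blocks Gal4 at low temperature. Each library came from a pool of fly heads, from which nuclei tagged with GFP were pulled down, so that animals and MB neuron classes were not resolved and no tissue other than the MB was measured. The sex was male by the study's methods. The study's methods describe general rearing conditions, and the age of these flies and any temperature shift applied to them were not given in the sources used here.

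The MB is the learning and memory centre of the fly brain, and its intrinsic neurons are the Kenyon cells, which receive odour input on cholinergic dendrites and are modulated by dopamine and octopamine. Open chromatin is found at promoters, at internal promoters of genes with several transcript starts, and at enhancers, which bind transcription factors and are often placed in introns of the gene they act on or of a neighbour. Long genes with large introns are common among fly genes for neuronal adhesion, signalling and transcription. An open region by itself does not show which of these elements it is, nor which gene it acts on. The gene table used here gives the start and end of each gene and the accessions of its transcripts, without strand and without the positions of transcripts or exons, so that exons, introns, untranslated regions and internal promoters were not told apart.

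The lists held 17942 peaks in replicate 1 and 15248 in replicate 2. They carry no read counts, so that the depth behind each value is not given by the files. By the study's methods replicate 1 kept more reads. Of 14 Kenyon cell genes checked, 14 had a region called in both replicates within 500 bp of 1 of their own ends, with median fold enrichments there of 5.39 (replicate 1) and 5.47 (replicate 2). Such a region was also found at 5 of 5 general neuronal genes (median 3.90 and 3.89), 3 of 6 glial genes (3.18 and 3.09), 5 of 12 photoreceptor genes (3.61 and 3.77), 3 of 6 fat body and blood cell genes (3.84 and 3.67) and 0 of 6 muscle genes. Of all 13922 protein-coding genes, 9198 had such a region. On a longer list of 8 muscle genes, Mlc2 had one at 2.04 and 1.84. The defining glial gene repo and the photoreceptor genes ninaE, Rh4 and Rh6 had none, whereas the glial genes wrapper (6.36 and 6.18) and moody (3.18 and 2.86) and the photoreceptor gene Rh3 (6.99 and 6.69) did. How far other head cells contributed to the internal regions was not tested.

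Fold enrichment is the ratio of the reads at a peak to the background that the peak caller estimated around it. Pairs of values below are in the order replicate 1, replicate 2. In replicate 1 the internal regions had a median of 2.17 (interquartile range 1.66 to 3.21), and in replicate 2 the median was 2.03 (1.57 to 3.07). The highest values were 10.4 and 10.6 and the lowest 1.17 and 1.16. Most of these regions were therefore modest, with a tail of strong ones. The median width was 731.5 bp (interquartile range 439 to 1137.75 bp), and the widest measured 4370 bp. With 1 condition and no counts, no test between samples was possible, and all differences below are descriptions read beside the spread between the replicates.

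The replicates ranked the regions nearly alike. Across the 3574 regions, which are not independent replicates, the log2 fold enrichment of the replicates had a Pearson correlation of 0.983 and a Spearman correlation of 0.972. The log2 ratio of replicate 1 to replicate 2 had an SD of 0.12, and the median ratio was 1.04, with replicate 1 higher at 2503 regions (70.0%). The replicates differed by more than 1.25-fold at 70 regions (1.96%), and the ratio ran from 0.778 to 1.38. A single peak from each replicate made up 3421 regions (95.7%), and in these the summits lay a median of 25 bp apart, with 149 (4.36%) more than 200 bp apart. A difference in fold enrichment well above the SD of the ratio was thus larger than the usual gap between the replicates.

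**Figure D1:**
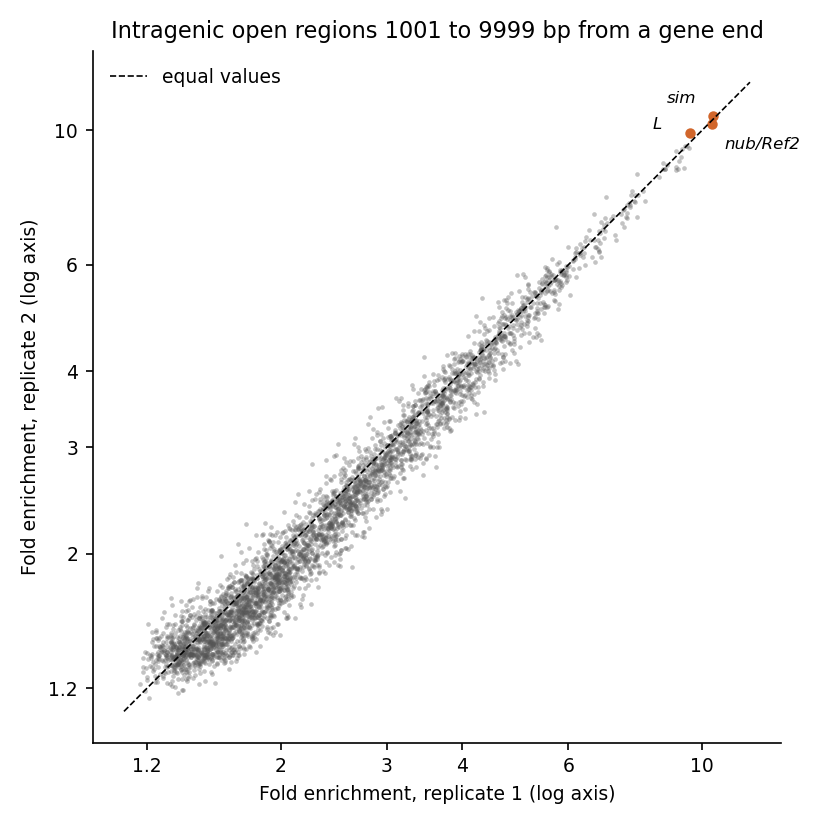
Fold enrichment of each of the 3574 internal regions in replicate 1 (x, log axis) against replicate 2 (y, log axis), with the dashed line marking equal values and the strongest regions named by host gene. The points lie close to the line, and the region in sim is the highest in both replicates, at 10.4 and 10.6.

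Calling in both replicates was less frequent inside genes than near their ends. Of 4819 merged regions of the same intragenic zone, 3574 (74.2%) were called in both replicates, 1201 in replicate 1 only and 44 in replicate 2 only. Within 1000 bp of a gene end the share was 88.9% (8063 of 9065). Regions called in replicate 1 only were weak, with a median fold enrichment of 1.30 and a highest value of 1.90, so that no internal region above that level in replicate 1 was missing from replicate 2. The part that the deeper reads of replicate 1 have in this count was not tested.

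Internal regions were weaker and narrower than regions near gene ends. The 8063 regions within 1000 bp of a gene end had a median fold enrichment of 3.25 and 3.18 and a median width of 1115 bp. The ratio of the medians, internal to near the end, was 0.667 and 0.640, a gap far wider than the median ratio of 1.04 between the replicates. Because distance ran from the edges of a region, wide regions fell near gene ends more easily. With distance taken from the summits, the ratio was 0.682 and 0.658. The 1535 intragenic regions 10000 bp or more from any gene end were closer to the internal ones, with medians of 2.35 and 2.18 and a width of 753 bp. The 1484 regions outside protein-coding genes and over 1000 bp from any gene end had medians of 2.46 and 2.32 and a width of 667 bp. The distance from a gene end therefore did not order the medians, since the deepest intragenic regions stood slightly above the internal ones.

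**Figure D2:**
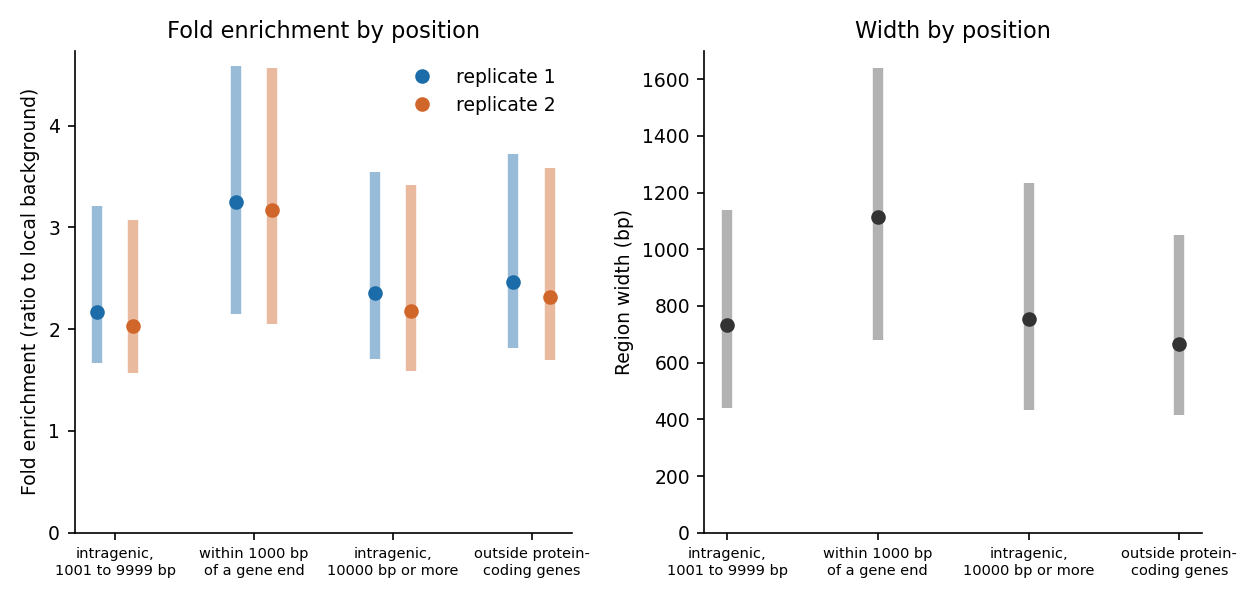
Median (point) and interquartile range (bar) of fold enrichment in each replicate (left) and of region width in bp (right), for internal regions, regions within 1000 bp of a gene end, intragenic regions 10000 bp or more from one, and regions outside protein-coding genes. The internal regions have the lowest median fold enrichment in both replicates, at 2.17 and 2.03, while regions near gene ends have the highest, at 3.25 and 3.18.

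Strong regions, taken as a fold enrichment of at least 4 in both replicates, were 463 of the 3574 internal regions (12.95%), against 25.0% of all regions called in both replicates. The share was 32.9% within 1000 bp of a gene end, 17.8% in the deep intragenic set and 18.4% outside protein-coding genes. At the other end, 42.9% of internal regions lay under 2 in both replicates, against 20.6% near gene ends. Internal regions of at least 2000 bp numbered 162, and those under 300 bp numbered 442.

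Within classes of width the gap to regions near gene ends was smaller, and it was present in all but the narrowest class. Among regions of 1200 bp or more, the median was 3.65 and 3.59 for 800 internal regions and 4.30 and 4.27 for 3659 near gene ends. From 800 to 1199 bp the medians were 2.69 and 2.58 inside genes and 3.23 and 3.12 near ends. From 400 to 799 bp they were 1.94 and 1.81 inside and 2.13 and 2.02 near ends. Under 400 bp they met, at 1.53 and 1.47 for 750 internal regions and 1.54 and 1.48 for 777 near gene ends. The classes did not hold width equal, since regions near gene ends were somewhat wider within each. In the class of 1200 bp or more, their median width was 1699 bp, against 1566.5 bp for internal regions. Within the internal regions, wide ones were also the stronger ones, with a Spearman correlation of fold enrichment with width of 0.712 and 0.716. A peak's width is set by the same reads as its fold enrichment, so that this correlation is a property of the calling as well as of the regions.

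Across the zone itself, fold enrichment varied little with distance. Regions up to 2000 bp from the nearest gene end had medians of 2.04 and 1.94, those from there to 3000 bp 2.26 and 2.09, those from there to 5000 bp 2.19 and 2.05, and those beyond 5000 bp 2.19 and 2.04. The Spearman correlation of fold enrichment with distance was 0.047 in replicate 1 and 0.038 in replicate 2. The share of strong regions was 9.79% in the nearest class and 14.2% in the farthest. The nearest class had the lowest median in both replicates.

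The number of regions per base was higher farther from gene ends, while the covered share of bases varied less. The zone held 43.8 Mb, of which peaks covered 9.33% in replicate 1 and 7.54% in replicate 2, with 8.16 internal regions per 100 kb. The number per 100 kb was 5.90 up to 2000 bp from a gene end, 7.51 from there to 3000 bp, 8.46 from there to 5000 bp and 10.3 beyond 5000 bp. The rule lowers the first of these, since a region that reaches within 1000 bp of a gene end is not counted. Covered shares were 9.47% and 7.73% between 1000 and 2000 bp, 8.39% and 6.73% between 2000 and 3000 bp, and 10.2% and 8.27% beyond 5000 bp. The nearest class includes the flanks of regions that reached in from the gene end. By comparison, peaks covered 22.8% and 20.5% of the bases within 1000 bp of a gene end, 7.72% and 6.42% of the deep intragenic bases and 4.71% and 3.98% of the bases outside protein-coding genes. The order of these 4 zones was the same in both replicates.

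**Figure D3:**
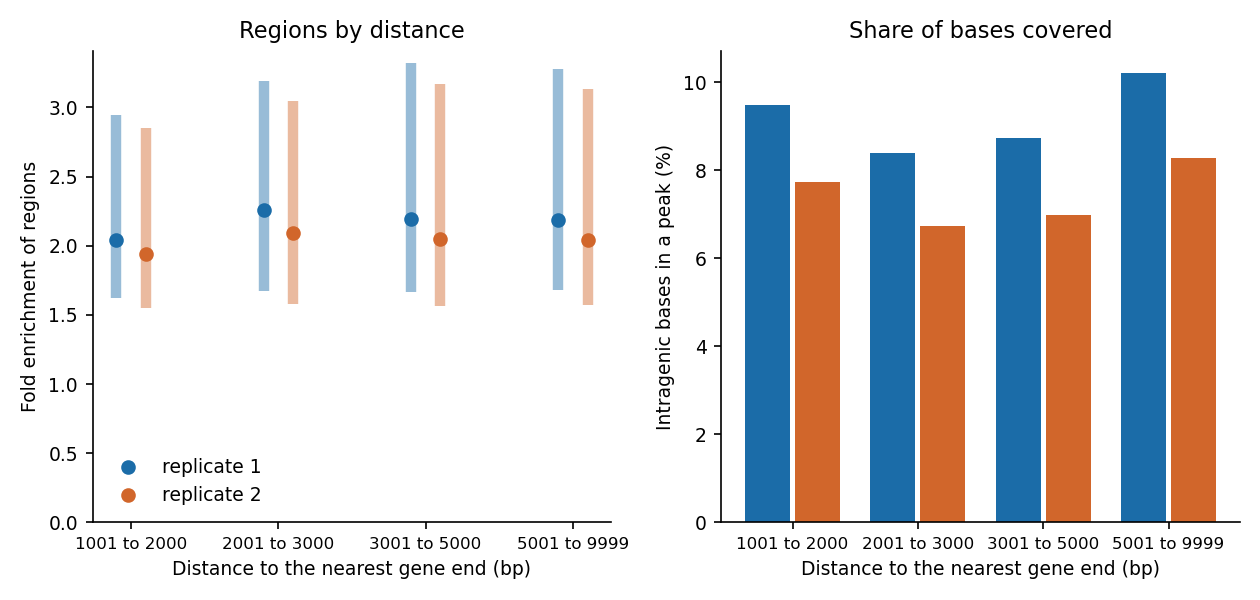
Internal regions by distance to the nearest gene end in bp. The left panel gives the median (point) and interquartile range (bar) of fold enrichment in each replicate, and the right panel the percentage of intragenic bases covered by peaks of each replicate. Medians stay between 2.04 and 2.26 in replicate 1, and coverage in replicate 1 runs from 8.39% to 10.2%.

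The gene end nearest to an internal region was an end of its host gene at 2045 regions (57.2%). At the other 1529 it belonged to another gene, which was protein-coding at 861 and a long non-coding RNA gene at 422. These last genes are often nested in the introns of protein-coding genes. Regions nearer to another gene had medians of 2.27 and 2.14, against 2.09 and 1.96 for those nearer to their host's own end. Of all internal regions, 35 lay inside the span of a long non-coding RNA gene as well, and 192 (5.37%) overlapped more than 1 protein-coding gene, so that their host could not be told apart.

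At the limits of the zone, values inside and outside were of the same order. The nearest internal region, in myd on 3R, lay 1 bp past the limit of 1000 bp and had 3.97 and 3.44. The region just outside that limit, in subdued, lay 1 bp short of the limit and had 2.05 and 1.97. The farthest internal region, in igl on 2R, lay at 9998 bp and had 5.08 and 5.09. The first one beyond, in CG34357, lay at 10004 bp and had 3.75 and 3.17.

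The 15 strongest internal regions are given by host gene. The highest of all, in sim on 3R (13063806 to 13064685, release 6, 880 bp), had a fold enrichment of 10.4 and 10.6, and ranked 9 of all regions called in both replicates in each of them. sim encodes a bHLH-PAS transcription factor known as the master regulator of the embryonic midline of the nervous system. It lay 6051 bp from the nearest gene end. The next, on 2L (12617682 to 12618809, 1128 bp, 10.4 and 10.2), lay in nub, a POU-domain factor, and in the span of Ref2, a gene that overlaps it. A region in L on 2R (14457947 to 14458627, 681 bp) had 9.56 and 9.90. Both replicates gave these 3 the same order. Their gaps were about as large as the spread between the replicates or smaller, so that the order is not firm.

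Several of the next lay in genes of adhesion molecules. Dscam1, an immunoglobulin receptor with a very large number of splice forms that serves self-recognition of neurites, held a region on 2R (7351855 to 7353086, 1232 bp) with 9.52 and 9.35. CadN, the neuronal cadherin, held one on 2L (17715136 to 17716329, 1194 bp) with 9.44 and 9.40. The same gene held a second internal region at 6.93 and 7.75. Con, a leucine-rich repeat adhesion protein, held one on 3L (4975861 to 4977135) at 9.11 and 8.64, only 2868 bp from the nearest gene end. mtgo held one on 2L (16601290 to 16602606) at 9.38 and 9.41.

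Other regions among the 15 strongest lay in transcription factor genes. How many of all internal regions lie in such genes was not counted, so that no share can be set beside these. Ets65A, an ETS-domain factor, reached 9.25 and 9.30 on 3L (6110390 to 6111661). Lim3, a LIM-homeodomain factor of motor neuron identity, reached 9.03 and 9.26 on 2L (19083123 to 19084249). Sox102F, a SoxD-type factor, reached 9.21 and 9.05 in a 1730 bp region on chromosome 4 (806948 to 808677). The posterior Hox gene Abd-B reached 9.17 and 8.89 on 3R (16934069 to 16935216), and the homeobox gene Hmx reached 9.34 and 8.65 on 3R (17566541 to 17567864), 1233 bp from a gene end. apt, another transcription factor gene, reached 9.04 and 8.61 on 2R (23573014 to 23573967). Openness inside such a gene does not tell whether it was expressed in these neurons, which ATAC-seq did not measure.

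The remaining regions of the 15 lay in capu, which encodes a formin that nucleates actin, on 2L (3895555 to 3896838, 9.05 and 8.68), and in MSAmiP on 3R (16882364 to 16882971, 8.75 and 8.76). The latter was only 608 bp wide and lay 9439 bp from the nearest gene end, which was that of lncRNA:CR43617. Strength and width were thus not the same property. The 3 widest regions were of middle strength, at 2.93 and 2.87 over 4370 bp in the kinase gene Lk6 (3R, 11758549 to 11762918), 2.97 and 3.05 over 3491 bp in tara (3R, 16247214 to 16250704), and 2.88 and 2.30 over 3347 bp in heca (3R, 30282025 to 30285371).

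Host genes numbered 1624 of the 7067 protein-coding genes that have any bases in the zone (23.0%). They gave 3774 pairs of a gene and a region. A single internal region was found in 749 hosts (46.1%), 2 in 334, 3 or 4 in 362, 5 or more in 179 and 10 or more in 14, with a highest number of 17. By the rule, hosts had to be long enough to reach into the zone. Their median length was 20.2 kb, with 16.5 kb inside the zone, whereas the 5443 genes with bases in the zone and no internal region had a median length of 3.81 kb with 1.54 kb inside it. Regions within a host were spaced by a median of 3156 bp (interquartile range 1075 to 8335.25 bp) over 2150 gaps, and 514 gaps (23.9%) were under 1000 bp.

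The share of genes with an internal region followed the space for one. It was 0.238% of genes with under 1 kb inside the zone, 6.53% with 1 to 5 kb, 36.6% with 5 to 10 kb, 67.5% with 10 to 20 kb, 89.2% with 20 to 50 kb, and 94.2% (49 of 52) above that. Most fly genes with long stretches away from gene ends thus held at least 1 accessible internal region in these nuclei. Genes with more transcripts in the gene table also held more, with no allowance for their length or for distance. Hosts were 7.12% of genes with 1 transcript, 22.6% with 2 to 4, 49.1% with 5 to 9 and 72.7% with 10 or more, and regions per 100 kb of zone followed the same order, 4.40, 7.76, 9.73 and 11.2. The medians of fold enrichment were 2.05 and 1.89 with 1 transcript and 2.22 and 2.07 with 10 or more. Whether internal transcript starts lay at these regions was not analysed here.

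**Figure D4:**
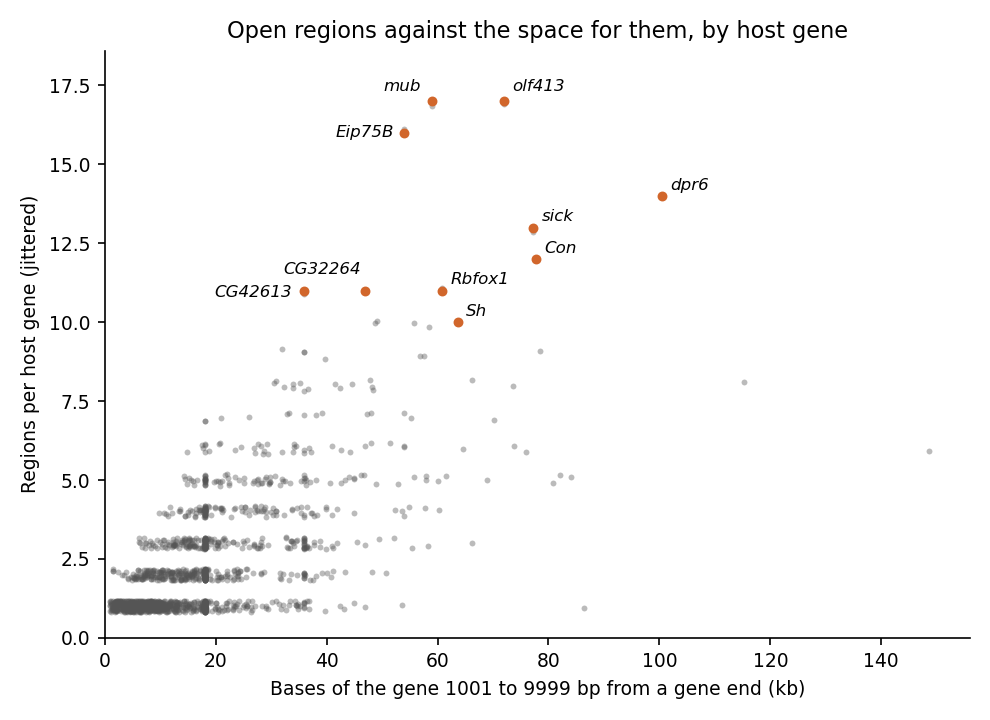
Number of internal regions per host gene (y, whole numbers with a small random shift so that points do not overlap) against the bases of the gene inside the zone in kb (x), with genes named among those with 10 or more regions. mub and olf413 have the most, 17 each, and CG42613 has 11 in 36.0 kb.

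The 14 hosts with 10 or more internal regions were neuronal, signalling and gene regulation genes as well as genes without a name of function. mub, which encodes a KH-domain RNA-binding protein named for its MB expression, had 17 regions in 59.0 kb of zone. Their median was 1.62 and 1.56 and the strongest had 5.83 and 5.85, so that mub held many weak regions and few strong ones. olf413, related to the enzymes of octopamine synthesis, also had 17, in 72.0 kb, with a best region of 4.88 and 4.44. Eip75B, an ecdysone-induced nuclear receptor, had 16 in 54.0 kb, with a median of 2.22 and 2.26 and a best of 5.95 and 5.98, while the regions at its own ends reached only 1.97 and 1.80.

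Surface, channel and signalling genes were among the others. dpr6, of the immunoglobulin family of synaptic recognition proteins, had 14 regions in 100.4 kb, the best at 5.56 and 5.53. sick, a regulator of the actin cytoskeleton, had 13 in 77.3 kb with a best of 8.62 and 8.83, and Con had 12 in 77.8 kb. The potassium channel gene Sh had 10 in 63.6 kb, the best at 4.52 and 4.02. Mmp2, a matrix metalloproteinase, had 10 in 55.7 kb with a best of 6.87 and 6.97. Longer genes have more room for regions, and these hosts were picked for their counts. Over all protein-coding genes the zone held 8.16 internal regions per 100 kb.

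Of the same 14 hosts, Rbfox1, a splicing regulator, had 11 regions in 60.8 kb with a best of 6.25 and 6.27. mam, a co-activator of Notch signalling, had 10 in 48.7 kb with a best of 5.15 and 5.58, and ttv, an enzyme of heparan sulphate synthesis, 10 in 49.1 kb with a best of 6.15 and 6.17. The genes known by number only were CG32264, with 11 in 46.9 kb (best 5.67 and 5.76), CG44837, with 10 in 58.5 kb (6.68 and 6.42), and CG42613, with 11 in 36.0 kb (3.28 and 3.25). CG42613 was the densest of the 14 at 3.06 regions per 10 kb, and none of its regions was strong.

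A region at the host's own end, within 500 bp, was called in both replicates for 1461 hosts (90.0%), against 76.3% of the genes with bases in the zone and no internal region. In 343 of these 1461 hosts (23.5%) the strongest internal region had a higher fold enrichment than the strongest end region in both replicates, in 1072 it was lower in both, and in 46 the replicates differed. Hosts without an end region numbered 163, of 1624 hosts. Strong internal regions in them numbered 48, against 463 in all. Among these hosts with a strong internal region were Ref2, CadN and MSAmiP, named above. Others were the ETS factor gene pnt (3R, 23292994 to 23293498, 8.60 and 8.64), TfAP-2 (3L, 21598079 to 21599062, 7.82 and 7.81), the nuclear receptor gene svp (3R, 12280574 to 12281238, 7.11 and 7.22) and the calcium channel gene Ca-alpha1D (2L, 16167628 to 16169791, 7.07 and 7.15). These genes were named here after their values were seen. In such genes the annotated outer ends were not called open in both replicates, while a site inside them was.

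Gene groups were described by the number of regions per 100 kb of their zone. This allows for the amount of room but not for its distance from gene ends, and the listed genes are long, with a median of 36.4 kb for the Kenyon cell list against 2.16 kb for all protein-coding genes. Some genes are on more than 1 list. The numbers of hosts in a list were not adjusted for the room of its genes and are to be read beside the shares by room above. Over all protein-coding genes the density was 8.16, with 12.95% of regions strong. The density of all genes at the distances of a list's own zone, an allowance chosen after seeing the data, was between 7.17 and 8.87 for the lists below, apart from 5.90 for the ribosomal protein genes. The Kenyon cell and MB genes held 101 regions in 27 of 33 genes, or 14.5 per 100 kb, against 8.77 for all genes at the same distances. Their median fold enrichment was 2.43 and 2.33, and 18 regions (17.8%) were strong. Without mub, which carried 17 of the regions, the density was 13.2. In 8 of the 25 hosts of this group with an end region, the best internal region was above the best end region in both replicates. Over all hosts with an end region, this held for 343 of 1461 (23.5%). The best was taken from more regions per host in this group, 101 in 27 hosts, against 3774 pairs in 1624 hosts of all genes.

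Transcription factors of Kenyon cell identity and timing held some of the stronger regions of that group. ey, the Pax6 gene that acts in MB development, held 3 regions on chromosome 4, at 6.27 and 6.49 (703656 to 705187), 4.11 and 3.95, and 3.28 and 3.21. Its end regions reached 3.25 and 3.31, well below the best internal site in both replicates. In toy, the other Pax6 gene, the order was the opposite, with 3 internal regions of at most 2.43 and 2.25 and an end region of 8.01 and 7.99. dac, a nuclear factor of Kenyon cells, held 3 weak regions, the best at 1.68 and 1.92. mamo, a zinc finger factor of the alpha′/beta′ fate, held 3 with a best of 5.57 and 5.84, ab held 2 with a best of 6.12 and 6.12 over 3235 bp, and chinmo, which sets early fates, held 1 at 4.26 and 4.0. pros held 3 (best 3.61 and 3.67), br 1 (2.76 and 2.58) and Eip93F 1 (5.51 and 5.59).

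The RNA-binding proteins Imp and Syp, which form opposing gradients that set temporal fates in MB neuroblasts, each held 5 internal regions and no region within 500 bp of their own ends. In Imp, the 5 were 2.95 and 2.56, 3.66 and 3.57, 2.12 and 2.11, 3.70 and 3.64, and 4.12 and 4.06 (X, 10818252 to 10819707). The best in Syp was 3.28 and 3.09. Both genes were thus open at several internal sites and not called open at their outer ends in both replicates.

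The nuclear receptor genes had the highest density of the groups given here, with 54 regions in 10 of 19 genes, or 17.4 per 100 kb, and 14.8 without Eip75B, against 8.65 for all genes at the same distances. The median was 2.58 and 2.43, and 11 (20.4%) were strong. EcR, the ecdysone receptor, which triggers pruning of gamma neurons at metamorphosis, held 9 regions, the best of them 3249 bp wide (2R, 6131658 to 6134906, 4.60 and 4.74). ftz-f1, which acts before EcR in that pathway, held 8, the best at 6.34 and 6.18 (3L, 18765362 to 18766138). The other 7 in ftz-f1 ran from 2.11 to 4.40 in replicate 1 and from 2.20 to 4.44 in replicate 2, and its end region had 7.81 and 7.86. Hnf4 held 5 with a best of 3.41 and 3.18, and Hr39 and Hr4 held 4 each, with a best of 5.18 and 5.40 and of 2.89 and 2.44. Hr51 and usp, the partner of EcR, held none, but they had only 6.06 and 1.07 kb of zone. EcR and ftz-f1 are also on the Kenyon cell list, so that the 2 groups share 17 of these regions.

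**Figure D5:**
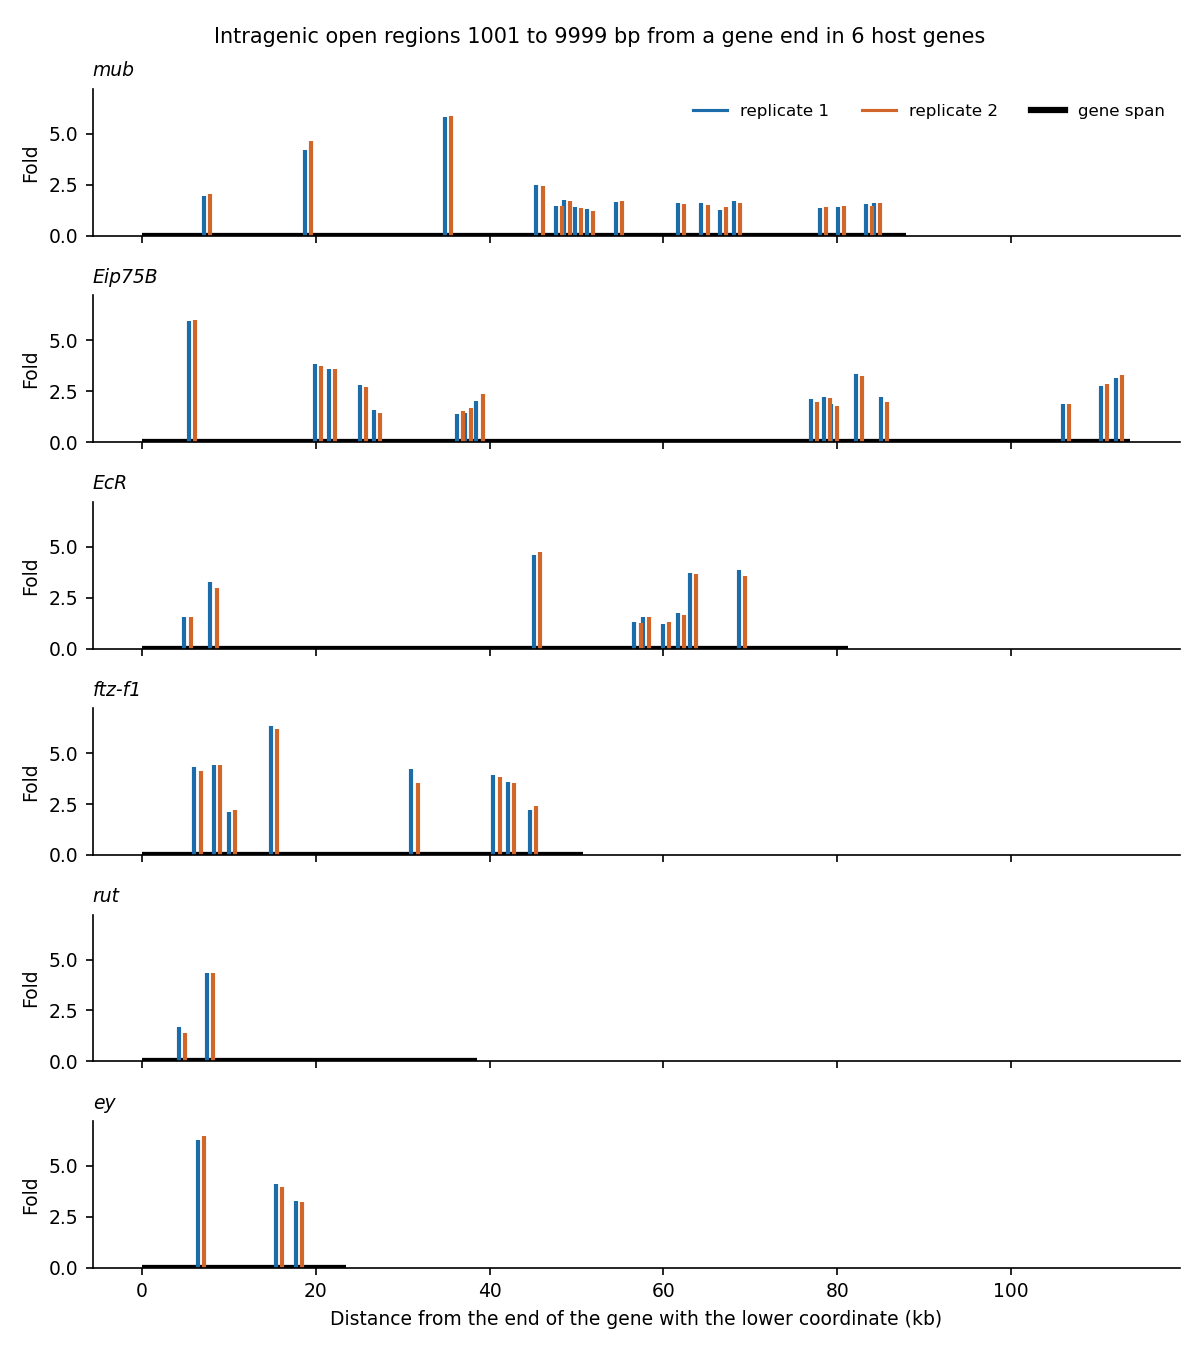
Internal regions along the host genes mub, Eip75B, EcR, ftz-f1, rut and ey, by distance in kb from the gene's lower-coordinate end (x), with the black bar as the gene span and the height of each line as fold enrichment in replicate 1 (blue) and replicate 2 (orange), drawn side by side around the region's centre. The replicates give lines of nearly equal height. In mub most of the 17 lines are short, and in ey the highest is 6.27 and 6.49.

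Genes of the memory signalling pathways also held internal regions. rut, the calcium-responsive adenylyl cyclase that detects the coincidence of odour and dopamine, held 2, at 4.33 and 4.36 and at 1.71 and 1.40. The driver transgene carries a copy of rut enhancer sequence whose reads align to rut, and its part in these values was not tested. dnc, the cAMP phosphodiesterase, held 4 with a best of 3.73 and 3.23. For protein kinase A, Pka-R2 held 3 (best 5.60 and 5.79), Pka-C1 3 (2.49 and 2.33) and Pka-C3 2 (3.47 and 3.74). The wider group of cAMP, calcium and kinase genes held 104 regions in 40 of 51 genes, or 11.7 per 100 kb, with medians of 2.26 and 2.18 and 15 strong regions (14.4%). It includes cpo, an RNA-binding protein gene and not a signalling gene, with 3 of these regions. In it, the insulin receptor gene InR held 7 with a best of 7.97 and 7.93, Pka-R1 held 5 (best 5.32 and 5.04), Raf 5 (5.0 and 4.60) and Galphao 5 (4.51 and 4.09).

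Of the dopamine, serotonin and octopamine receptor genes, 15 of 16 were hosts. Of all genes, 67.5% with 10 to 20 kb inside the zone and 89.2% with 20 to 50 kb were hosts. The receptor genes held 41 regions or 11.9 per 100 kb, against 8.87 for all genes at the same distances. The median of these regions, 1.97 and 1.75, was lower than that of all internal regions, and 6 (14.6%) were strong. Dop1R1, the dopamine receptor needed for learning in Kenyon cells, held 2, at 6.52 and 6.59 (3R, 14170198 to 14171557) and at 1.94 and 1.72, with 5.48 and 5.64 at its end. Dop1R2, which acts in forgetting, held 3 with a best of 3.96 and 3.80, DopEcR 3 with 3.85 and 3.98, and Dop2R 6 with 5.49 and 5.16. Of the octopamine receptors, Oamb held 5 (best 5.69 and 5.67), Octbeta3R 5 (3.00 and 2.69) and Octbeta1R 2 (4.61 and 4.66). Oamb held 1 strong region among weak ones, since its median was 1.61 and 1.48.

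Receptor genes for acetylcholine, GABA and glutamate were described as 2 groups. The nicotinic acetylcholine receptor subunits, which carry the odour input to Kenyon cells, held 15 regions in 5 of 9 genes, or 7.83 per 100 kb. Of these regions, 4 (26.7%) were strong, against 12.95% of all internal regions. nAChRalpha6 held 5 (best 5.41 and 5.07), nAChRalpha5 5 (3.50 and 3.75), nAChRalpha1 3 (4.63 and 4.57), nAChRbeta1 1 (5.18 and 5.12) and nAChRalpha3 1 (1.36 and 1.33). The GABA and glutamate receptors, G protein-coupled ones included, held 18 in 7 of 13 genes, or 11.9 per 100 kb, with 2 strong (11.1%). Among them, GluRIB held 5 with a best of 4.93 and 4.98 and GABA-B-R1 held 2 with a best of 5.74 and 5.57. The GABA-A receptor gene Rdl, which curbs Kenyon cell responses, held 3 with a best of 3.82 and 3.88.

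The channel list held 47 regions in 17 of 30 genes, or 8.39 per 100 kb, close to all genes, with medians of 2.56 and 2.33 and 8 (17.0%) strong. It includes CARPB, a carbonic anhydrase-related gene and not a channel, with 5 of these regions. The potassium channel gene Shab held 4 with a best of 5.95 and 5.83 and Shal held 4 weak ones with a best of 1.87 and 1.96. The calcium channel subunit gene Ca-beta held 3 with a best of 5.21 and 5.34. Synaptic vesicle and active zone genes held 36 in 13 of 36 genes, or 7.85 per 100 kb, with 7 strong (19.4%). Liprin-gamma held 8 (2R, best at 22353553 to 22355389, 7.66 and 7.93), the scaffold gene CASK 6 (6.18 and 6.39), dysc 5 (6.01 and 5.75) and the active zone gene Rim 5 (5.38 and 5.34).

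Adhesion and axon guidance genes held 155 regions in 47 of 70 genes, the most of any list, but their density of 8.33 per 100 kb and their medians of 2.14 and 1.99 were close to those of all genes, as was the share of strong regions, 12.9%. After Con, the most regions were in the teneurin gene Ten-a and the semaphorin gene Sema1a, with 8 each (best 5.60 and 5.43, and 4.04 and 4.27), Ten-m with 7 (2.65 and 2.54) and, with 6 each, beat-Ib (5.70 and 5.37), kirre (5.04 and 5.04), Fas3 (3.29 and 2.88) and caps (2.67 and 2.39). Fas2, a marker of the alpha/beta and gamma lobes, held none. The dpr and DIP genes held 49 in 15 of 32 genes, or 7.11 per 100 kb, with 7 strong (14.3%). After dpr6 came dpr3 with 6 (best 2.20 and 1.92), dpr11 with 5 (3.83 and 3.73), dpr10 with 4 (2.60 and 2.56) and, with 3 each, DIP-alpha (5.70 and 5.69), dpr12 (5.05 and 5.12) and dpr8 (2.35 and 2.06).

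Other transcription factor genes had a larger share of strong regions than all internal regions, at a density close to that of all genes. They held 139 regions in 61 of 90 genes, or 9.11 per 100 kb, with medians of 2.73 and 2.56 and 36 strong (25.9%, against 12.95% of all internal regions). bun held 7 (best 4.0 and 4.16), Abd-B 6, psq 6 (3.18 and 3.26), sr 4 (7.60 and 7.47) and rn 4 (5.89 and 5.76), with 4 in acj6, crp, jim and ttk too. sr is the fly Egr gene, a zinc finger factor induced by neuronal activity. RNA-binding and splicing genes held 96 in 24 of 36 genes, or 10.6 per 100 kb, with medians of 2.06 and 1.89 and 13 strong (13.5%). Without mub their density was 9.36, against 8.77 for all genes at the same distances. Besides mub and Rbfox1, the translational repressor gene pum held 8 (best 4.59 and 4.59), sm 6 (5.13 and 4.86) and bru3 6 (4.93 and 4.69).

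The neuronal gene trio, on the Kenyon cell list, held 2 internal regions (best 3.81 and 4.10). Of the 10 genes that the study names as Trx targets, Xrp1 alone was a host, with 3 regions (best 4.29 and 4.15). These 10 genes have only 46.1 kb of zone, with 6.51 regions per 100 kb against 7.84 for all genes at the same distances, and 23.0% of all genes with bases in the zone were hosts.

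Genes of other cell types were not all without internal regions. Glial genes held 8 in 4 of 11 genes, or 15.8 per 100 kb of only 50.7 kb of zone, at nrv2 (best 5.47 and 5.47), loco (3.66 and 3.88), Gs2 (2.37 and 1.86) and Eaat1 (1.90 and 1.64). For all genes at the same distances the density was 7.17. Photoreceptor genes held 7 in 2 of 8 genes, 5 of them in norpA, a phospholipase C with a role in other neurons too (best 4.66 and 4.93), and 2 in trpl (5.79 and 5.63). Their density was 15.6 per 100 kb, against 7.66 for all genes at the same distances, and 8.30 without norpA. Muscle genes held 0 in 92.8 kb, fat body and blood cell genes 0 in 13.5 kb, and the cytoplasmic ribosomal protein genes had only 1.46 kb of zone, with 0. The source of the glial and photoreceptor regions, MB neurons or other cells, cannot be told apart in these libraries.

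The remaining Kenyon cell genes completed the range of that group. rgn held 5 regions with a best of 2.79 and 2.63, and sNPF, the gene of a neuropeptide of Kenyon cells, held 1 at 2.42 and 2.38. Nf1, amn and prt held no internal region, although each had a region at its own end. Room was small in prt (0.654 kb of zone) and amn (1.95 kb), and Nf1 had 10.7 kb. Of all genes, 0.238% with under 1 kb of zone and 6.53% with 1 to 5 kb were hosts. The weakest internal regions of all were close to 1, the level of the local background, among them those in crp (1.19 and 1.19), Vha16-1 (1.21 and 1.16) and PAN3 (1.17 and 1.22).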

How the data were processed

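ATAC-seq peak lists of 2 biological replicates of naive control MB nuclei were used. For these files the authors used Trimmomatic (0.39) for trimming, Bowtie2 (2.4.1) for alignment to release 6 (dm6) and MACS2 (2.1.2) for calling peaks, separately per replicate and with a q limit of 0.01. Reads were shifted for the transposase cut, and duplicate, multi-mapped, mitochondrial and scaffold reads were left out. Per peak they deposited a fold enrichment, a ratio to the local background and the value used here. The deposited −log10 p-value and −log10 q-value, which grow with depth, served only for filtering (q) or not at all (p), and the deposited score was not used. Because the background is estimated locally, fold enrichment may depend on the neighbourhood of a peak. The lists give no reads, so that no interval or test was computed.

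Merging, distances to the ends of the 17684 RefSeq genes on 6 chromosome arms, and covered bases were computed in Python (3.11.15) with pandas (2.3.3), numpy (2.4.6) and scipy (1.17.1). The merging and distance steps were tested on simulated lists. A host gene is a protein-coding gene that a region overlaps, and its zone is its bases more than 1000 and less than 10000 bp from any gene end. Positions are counted from 1. Members and 19 gene lists were chosen with earlier results of these data known. The result of 1 list is not reported here. Named are the hosts of the 15 strongest, 3 widest and limiting regions, the 10 hosts with the most regions (14 with ties), up to 5 genes per list by number of regions and then fold enrichment (more where ties are given), every Kenyon cell gene with a region, and single genes that a result turned on. Peak sequences and motifs were not analysed here. Alternatives were a 50% reciprocal overlap, stricter q filters, ends of protein-coding genes only, summits in place of regions, other distance limits, and each replicate alone.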

Additional observations from a re-analysis of the deposited data

How the results depend on the processing

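No paired analysis was possible because both replicates belong to a single condition. Over 63 comparisons of 7 results with their alternatives, 46 stayed close and 17 moved. Only the ratios of medians compare internal regions with regions near gene ends. Those ratios were at most 0.753 under any alternative, so that internal regions stayed the weaker ones. A count was taken as close within 1.5-fold of the main value, a wide limit. A median or ratio was taken as close within the SD between the values of the replicates. All 17 that moved were medians or ratios. A reciprocal overlap gave median fold enrichments of 2.38 and 2.23 (ratio to regions near gene ends 0.707 and 0.675), a −log10 q of at least 5 gave 2.41 and 2.24 (0.711 and 0.677), and of at least 10 gave 2.68 and 2.55 (0.753 and 0.732) with a median width of 907 bp. The q filters drop weak regions by construction. With 1 replicate alone the medians were 1.79 without replicate 2 and 1.95 without replicate 1, the ratios 0.607 and 0.629, and the widths 529 and 551 bp. Over all alternatives the number of internal regions ran from 2533 to 4856 and of hosts from 1328 to 1848. The lists give no depth, so that how depth limits the calling of weak regions was not tested.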

Other observations

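Internal regions differed by chromosome arm in number more than in strength. The density was 8.26 per 100 kb of zone on 2L, 8.79 on 2R, 9.33 on 3L and 8.66 on 3R, with 650, 697, 809 and 875 regions. On the X chromosome it was 6.06 (516 regions), and on chromosome 4, which is small and rich in heterochromatin, 3.93 (27 regions). Within 1000 bp of a gene end, chromosome 4 was instead the densest arm, at 29.3 regions per 100 kb against 21.2 over all arms. Peaks covered 7.23% and 5.97% of the zone on X and 5.99% and 4.96% on chromosome 4, against 9.49% and 7.67% on 2L. Median fold enrichment on X, 2.18 and 2.08, was close to that on 2L, 2.18 and 2.01, while the few regions on chromosome 4 had 2.67 and 2.47. The nuclei were male by the study's methods, and a property of the arm cannot be told apart from its single copy here.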
